A study of Mus musculus with 6 samples.

Results

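Genes that mark endothelial cells or direct the growth of vessels were followed in bulk RNAseq of infarcted mouse left ventricles. The set held 43 genes, taken by symbol from a table of 17556 genes, and all 43 were among the 13817 genes that passed a filter on low counts and were tested. It was made of 27 pan-endothelial genes (14 of the cell surface and junctions, 6 transcription factors and 7 receptors of angiogenic signals), 6 genes of activated endothelium, 4 lymphatic genes and 6 angiogenic ligands. None of the 43 differed between genotypes after Benjamini-Hochberg adjustment in edgeR. At an unadjusted p under 0.05 there were 5 (11.6%, against 5.83% of all tested genes in either direction). Each was higher in Cre-positive ventricles, as were 2.85% of all tested genes at that p. The 5 were the ligand Apln, the transcription factor Fli1, the adhesion molecule Vcam1, and the lymphatic genes Flt4 and Pdpn.

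The Cre-positive group was 3 mice with Yap floxed on both alleles and Wwtr1 floxed on 1 allele (Yap fl/fl;Wwtr1 fl/+) that also carried a copy of MerCreMer, a tamoxifen inducible Cre recombinase, at the endogenous Periostin locus (Postn MCM). The Cre-negative group was 3 siblings with the same floxed alleles and wildtype Periostin. Every mouse was 6 to 10 weeks old, had a surgical myocardial infarction (MI) by permanent ligation of the left anterior descending artery, ate a tamoxifen citrate diet from surgery onward, and gave its left ventricle at 4 days post injury (dpi). Floxed alleles, infarct and tamoxifen were thus shared by both groups, and no uninjured ventricle entered the comparison. The labels describe the Periostin promoter as specific to myofibroblasts, so the deletion was not directed at endothelial cells. The comparison asks whether their genes differed between whole ventricles of both genotypes. The groups differed in the MerCreMer copy at the Periostin locus as well as in the intended deletion. No ventricle with MerCreMer but without floxed alleles was included, so these cannot be told apart. Each ventricle is a sample of its own in the labels, and p-values measure the spread between these 6 ventricles.

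Endothelial cells line blood and lymphatic vessels and hold together through junction proteins such as Cdh5. Vascular endothelial growth factors (VEGFs) act on them through the receptors Kdr, Flt1 and Flt4, and angiopoietins act through Tek. Activated endothelium displays selectins and adhesion molecules that capture leukocytes, while lymphatic endothelium is specified by Prox1. After an infarct, capillaries are lost in the ischemic wall and new vessels grow in from its border. In a whole ventricle, fewer endothelial cells and less RNA per cell cannot be told apart.

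The libraries held between 13177888 and 14827579 estimated counts, with a median of 14507293 in Cre-negative and 14410878 in Cre-positive ventricles. Cre-negative replicate 1 stood apart: the summed level of 8 cardiomyocyte genes was 57699 in TPM, a level scaled to gene length and library, against 43125 to 48392 in the other 5 ventricles, and that of 8 fibroblast genes was 4660 TPM against 6655 to 8548. Its neutrophil genes summed to 426 TPM against 54.5 to 165 elsewhere. The targeted genes did not separate the genotypes in whole tissue, with a log2 fold change (Cre-positive over Cre-negative throughout) of 0.03 for Yap1 (edgeR adjusted p = 0.935) and 0.05 for Wwtr1 (adjusted p = 0.876), so these levels do not check the labels. Postn had a log2 fold change of -0.66 (adjusted p = 0.714), with 12182 normalized counts in Cre-negative replicate 1, below every Cre-positive ventricle, and 24690 and 26918 in the other Cre-negative ventricles. Without Cre-negative replicate 1, Postn was 1 of 2 genes of the table that passed adjustment.

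The lowest value of the set in any ventricle was 36 estimated counts, and mean levels ran from 1.52 TPM for Sele to 896 TPM for Fabp4. The coefficient of variation of TPM over the 6 ventricles had a median of 13.3%, from 7.23% for Egfl7 to 36.0% for Selp. The 95% interval of the log2 fold change lay within 1 of zero for 40 of the 43 genes and within 0.5 for 27, and was widest for Mmrn1, at 1.33 from end to end. A difference of 2-fold in either direction thus lay outside the interval for those 40 genes.

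**Figure D1:**
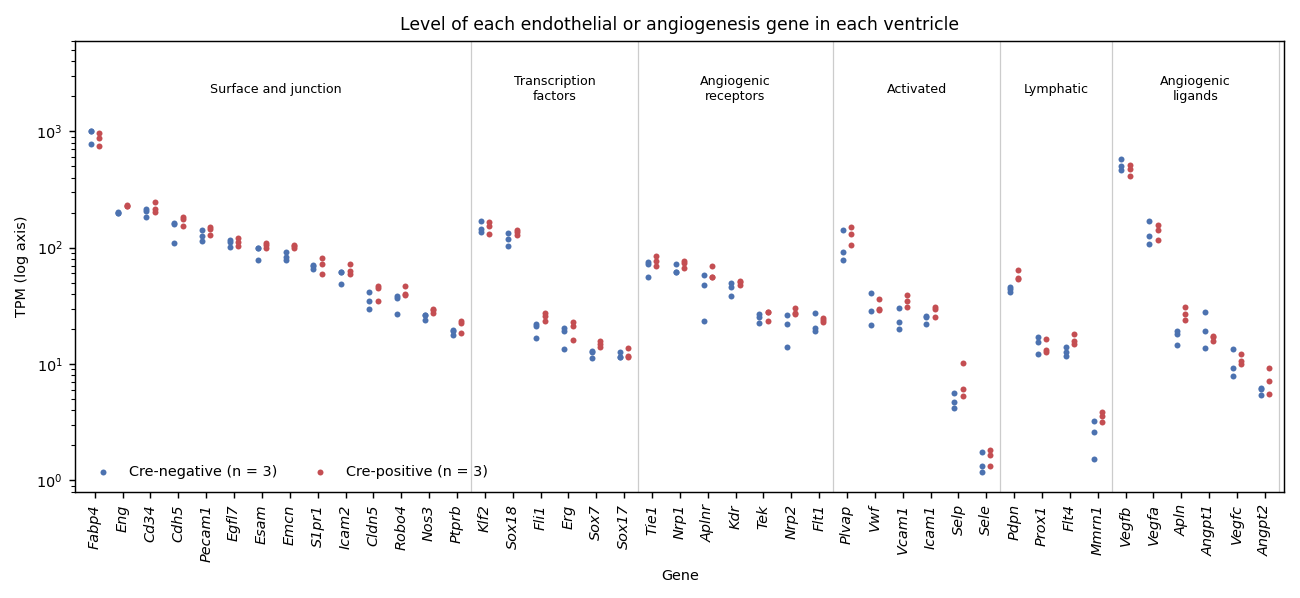
TPM (log axis) of each of the 43 genes in each ventricle, Cre-negative in blue and Cre-positive in red (n = 3 each), ordered by level within each class. Fabp4 and Vegfb lie highest, Sele and Mmrn1 lowest, and for most genes the points of both genotypes overlap.

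Across all tested genes edgeR called 1 (0.00724%) at an adjusted p under 0.05, the interferon-induced gene Gbp2b, which is not 1 of the 43. At an unadjusted p under 0.05 it found 806 genes (5.83%), of which 394 (2.85%) were higher and 412 (2.98%) lower in Cre-positive ventricles. Of the 43 genes of the set, 5 (11.6%) were higher by that measure and 0 lower. The DESeq2 Wald test also gave 0 adjusted calls in the set. It gave 3 genes at an unadjusted p under 0.05 (Vcam1, Pdpn and Apln), or 6.98%, against 5.88% of all tested genes. The edgeR count of 5 (11.6%, against 5.83% of all tested genes in either direction) was 2 without Cre-positive replicate 1 (4.65%, against 3.98% in that fit) or 2 (4.65%, against 2.68%). It was 3 without Cre-positive replicate 3 (6.98%, against 3.68%). All Cre-positive values lay above all Cre-negative values for 8 genes of the set (18.6%, against 7.55% of all tested genes), and the reverse order was found for 0 (against 6.85%). In TPM, on which the median of all tested genes was itself 0.13 higher (log2) in Cre-positive ventricles, 11 genes of the set lay wholly higher (25.6%, against 15% of all tested genes) and 0 wholly lower (against 2.44%). The 8 by normalized counts were Apln, Fli1, Flt4, Pdpn, Nrp2, Emcn, Sox7 and Nos3. The fitted log2 fold change was above zero for 30 of 43 genes (69.8%, against 51.2% of all tested genes), with a median of 0.07 against 0.006 over all tested genes. Many genes share an adjusted p of 0.714, since the adjustment gives a common value to genes that follow each other in order of p. The genes of the set come from the same 6 libraries, so they are not independent of each other.

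**Figure D2:**
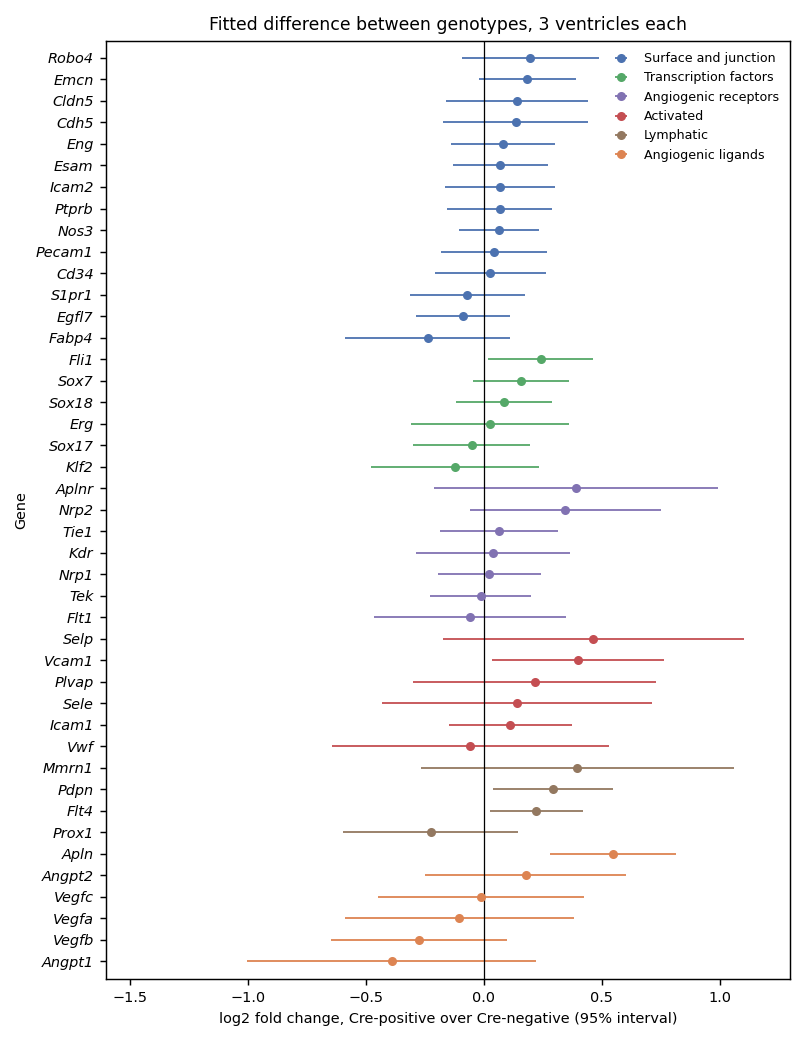
Fitted log2 fold change (Cre-positive over Cre-negative, 3 ventricles each) of the 43 genes with its 95% interval, coloured by class and ordered by value within a class. The intervals of Fli1, Vcam1, Flt4, Pdpn and Apln lie above zero, and those of all others cross it.

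The surface and junction genes were the most abundant class in summed TPM. Fabp4, a fatty acid chaperone of capillary endothelium and also of adipocytes, led with a mean of 896 TPM, and Ptprb, the phosphatase that restrains Tek, was lowest with 20.2 TPM. Of the 14 genes, 11 had a log2 fold change above zero and 3 below, from -0.24 for Fabp4 to 0.20 for Robo4 (0.09 without Cre-negative replicate 1), with a median of 0.07. None reached an unadjusted p under 0.05, and the median was 0.008 without Cre-negative replicate 1.

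Pecam1, the adhesion molecule used most often to stain endothelium, had 3176, 3158 and 3611 normalized counts in Cre-negative replicates 1 to 3 and 3250, 3380 and 3611 in Cre-positive replicates 1 to 3 (normalized counts are scaled to a library of 14293745, and replicates are listed in this order below). The groups spanned almost the same range, and the log2 fold change was 0.04 ± 0.10 (SE, adjusted p = 0.904). Cdh5, or VE-cadherin, the main protein of endothelial adherens junctions, had 3794, 5001 and 5046 against 4782, 5002 and 5422. Here Cre-negative replicate 1 was low and the other 5 ventricles lay close together. Its log2 fold change was 0.14 ± 0.13 (adjusted p = 0.771), and 0.009 without that ventricle.

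Emcn, a sialomucin of capillary and venous endothelium, had 936, 992 and 893 normalized counts in Cre-negative against 1120, 995 and 1093 in Cre-positive ventricles. The groups did not overlap, but only by the margin between 992 and 995. Its log2 fold change was 0.18 ± 0.09 (adjusted p = 0.714). Nos3, the endothelial nitric oxide synthase, had 845, 834 and 841 against 875, 865 and 894, so that all 3 Cre-positive ventricles were higher by a small amount, a log2 fold change of 0.06 ± 0.07 (adjusted p = 0.798). Both genes kept nearly the same value without Cre-negative replicate 1, at 0.18 for Emcn and 0.06 for Nos3.

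Fabp4 had 4878, 4411 and 3394 normalized counts in Cre-negative and 3234, 3541 and 3978 in Cre-positive ventricles. Its groups overlapped through Cre-negative replicate 3, and the log2 fold change was -0.24 ± 0.15 (adjusted p = 0.714). The value was -0.13 without Cre-negative replicate 1 and -0.37 without Cre-negative replicate 3, the only fit in which it had an unadjusted p under 0.05. The adipocyte genes Adipoq, Plin1, Cidec, Lep and Retn summed to 13.5 to 98.4 TPM in Cre-negative and 9.68 to 89.3 TPM in Cre-positive ventricles, with Lep listed at 0 in some, and their part in the Fabp4 level was not tested. The remaining surface genes had log2 fold changes between -0.09 (Egfl7, a secreted vessel matrix protein) and that of Robo4, a guidance receptor of endothelium. Eng, Cd34, Esam, Icam2, Cldn5, Ptprb and S1pr1 lay between them with overlapping groups.

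Among the transcription factors, 4 of 6 had a log2 fold change above zero and the median was 0.06. Leaving out each ventricle, the median ran from 0.033 without Cre-positive replicate 2, with 3 of 6 above zero, to 0.123 without Cre-negative replicate 2, and it was 0.034 without Cre-negative replicate 1. Fli1 (chr9:32422204-32543432, GRCm38.p6 here and below), an ETS factor that holds endothelial identity together with Erg, had 449, 540 and 503 normalized counts in Cre-negative and 564, 610 and 589 in Cre-positive ventricles. All 3 Cre-positive ventricles were higher, by a log2 fold change of 0.24 ± 0.10 (adjusted p = 0.714). The value was 0.17 without Cre-negative replicate 1, the lowest ventricle, with an unadjusted p no longer under 0.05, and that unadjusted p was under 0.05 in 1 of 6 fits that each left out a ventricle. Fli1 is also made by megakaryocytes and other blood cells, and the platelet genes Itga2b, Gp9, Gp1ba, Gp1bb, Ppbp and Treml1 summed to 19.3 to 49.7 TPM in Cre-negative and 17.2 to 25.9 TPM in Cre-positive ventricles, with a median log2 fold change of -0.61, or -0.10 without Cre-negative replicate 1 and -0.90 without Cre-negative replicate 3. The part of blood cells in the Fli1 level was not tested.

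Erg, the ETS partner of Fli1, had a log2 fold change of 0.03 ± 0.14 (adjusted p = 0.962) with overlapping groups, between -0.088 without Cre-negative replicate 1 and 0.133 without Cre-positive replicate 1. The SOXF factors direct arterial and lymphatic fate, and the 3 genes differed in their values. Sox7 had 313, 322 and 327 normalized counts against 353, 366 and 355, groups that did not overlap and had little spread within them, with a log2 fold change of 0.16 ± 0.09 (adjusted p = 0.714). Sox18 had a log2 fold change of 0.09 (adjusted p = 0.776), between 0.041 and 0.152 when each ventricle was left out. Sox17, the lowest of the class in level with 12.1 TPM, had -0.05 (adjusted p = 0.895), between -0.128 and -0.011. Klf2, a factor induced by laminar flow and the most abundant of the class with 150.2 TPM, had 2574, 1879 and 1975 against 2099, 1660 and 2151. Its highest value was again that of Cre-negative replicate 1, and its log2 fold change was -0.12 ± 0.15 (adjusted p = 0.818), or 0.03 without that ventricle.

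The receptors had a median log2 fold change of 0.04 and 5 of 7 above zero, and that median was 0.125 without Cre-negative replicate 1 and -0.03 without Cre-negative replicate 2. Kdr, the main signalling receptor for Vegfa, had 2366, 1641 and 1968 normalized counts in Cre-negative and 2161, 1892 and 2083 in Cre-positive ventricles. The Cre-positive values lay inside the Cre-negative range, and the log2 fold change was 0.04 ± 0.14 (adjusted p = 0.943), 0.177 without Cre-negative replicate 1 and -0.083 without Cre-negative replicate 2. Flt1, which binds Vegfa tightly and acts largely as a decoy, had 1497, 930 and 987 against 1096, 1097 and 1083. Its Cre-positive values were almost equal, while Cre-negative replicate 1 was far above the others. The log2 fold change was -0.06 ± 0.18 (adjusted p = 0.932) over all ventricles and 0.18 without that library (adjusted p = 0.733, unadjusted p under 0.05), so the direction turned on 1 ventricle.

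Tek, the angiopoietin receptor, had 842, 830 and 932 normalized counts against 793, 878 and 911, with a log2 fold change of -0.01 ± 0.09 and a 95% interval from -0.23 to 0.20. Its relative Tie1 had a log2 fold change of 0.07 (adjusted p = 0.866). Nrp1, a co-receptor for VEGF, had 0.02 (adjusted p = 0.948). For these receptors the groups overlapped throughout.

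Over all ventricles Nrp2 and Aplnr were the receptors with values furthest from zero. Nrp2, a co-receptor for Vegfc on venous and lymphatic endothelium, had 760, 1090 and 1280 normalized counts in Cre-negative and 1322, 1370 and 1287 in Cre-positive ventricles. The groups did not overlap, by the margin between 1280 and 1287, and most of the difference lay in Cre-negative replicate 1. For Nrp2 the log2 fold change was 0.35 ± 0.17 (adjusted p = 0.714), 0.16 without that ventricle and 0.52 without Cre-negative replicate 3. Aplnr, the receptor for apelin, had a log2 fold change of 0.39 ± 0.26 (adjusted p = 0.716) with overlapping groups, and 0.125 without Cre-negative replicate 1, whose value of 724 normalized counts was below the other 5 ventricles, but 0.63 without Cre-negative replicate 3.

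Over the 6 ventricles Apln had the largest log2 fold change of the 43 genes, although other genes exceeded it in some fits that left out a ventricle (Mmrn1 had 0.70 and Apln 0.48 without Cre-negative replicate 1). The gene lies at chrX:48025146-48034853 and encodes apelin, a peptide secreted by endothelial tip cells and by hypoxic tissue that acts through Aplnr. It had 395, 465 and 438 normalized counts in Cre-negative ventricles (432 ± 35.5, SD, n = 3) and 649, 695 and 553 in Cre-positive ventricles (632 ± 72.5, SD, n = 3). Every Cre-positive ventricle was above every Cre-negative one, with a gap from 465 to 553. The log2 fold change was 0.55 ± 0.11 (SE, edgeR adjusted p = 0.714), or 1.46-fold, with a 95% interval from 0.28 to 0.81. Leaving out Cre-negative replicate 1 gave 0.48, and across 11 alternative fits it ran from 0.47 to 0.63 with an adjusted p between 0.245 and 0.958. Apln was the only gene of the set with an unadjusted p under 0.05 in all 11 of them.

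The promoters of Apln, Flt4 and Pdpn are shown because these are the genes with an unadjusted p under 0.05, groups that did not overlap and an entry in the RefSeq promoter table (GRCm38.p6), which holds 25 of the 43 genes. Each is 250 bases before and 50 bases after the annotated start, read along the strand of the gene, at chrX:48034804-48035103 on the minus strand for Apln, chr11:49609429-49609728 on the plus strand for Flt4 and chr4:143299515-143299814 on the minus strand for Pdpn. Capitals mark letters that match a searched motif.
Apln: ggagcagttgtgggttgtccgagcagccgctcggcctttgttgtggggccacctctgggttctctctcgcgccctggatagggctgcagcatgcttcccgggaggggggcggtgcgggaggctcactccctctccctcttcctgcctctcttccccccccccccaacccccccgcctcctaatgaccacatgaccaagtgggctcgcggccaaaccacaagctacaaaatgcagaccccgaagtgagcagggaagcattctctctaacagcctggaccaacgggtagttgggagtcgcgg
Flt4: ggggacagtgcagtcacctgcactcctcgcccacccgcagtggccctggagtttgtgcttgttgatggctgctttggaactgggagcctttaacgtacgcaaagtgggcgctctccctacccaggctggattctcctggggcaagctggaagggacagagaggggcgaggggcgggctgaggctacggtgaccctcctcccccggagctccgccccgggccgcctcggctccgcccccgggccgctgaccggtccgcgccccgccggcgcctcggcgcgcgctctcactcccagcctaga
Pdpn: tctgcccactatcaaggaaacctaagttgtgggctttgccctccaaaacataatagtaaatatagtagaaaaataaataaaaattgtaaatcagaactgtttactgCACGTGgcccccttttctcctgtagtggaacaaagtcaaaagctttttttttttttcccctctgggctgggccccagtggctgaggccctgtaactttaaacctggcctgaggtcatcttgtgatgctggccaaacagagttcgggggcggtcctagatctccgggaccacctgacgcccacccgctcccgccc

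The motifs were searched on both strands of all promoters in that table (27025 genes). The TEAD motif CATTCC, bound by the DNA partners of Yap and Wwtr1, was in 16.6% of all promoters and in 2 of 25 of the set (Emcn and Erg). The ETS motif CCGGAA was in 16.7% and 2 of 25 (Kdr and Icam1), the SOX motif ACAATG in 14.3% and 2 of 25 (Erg and Mmrn1), and the KLF motif CCACACCC in 4.09% and 1 of 25 (Tie1). The NF-kB motif was in 1.89% and 0 of 25. The core of the hypoxia response element, ACGTG, was in 21.8% of all promoters and in 2 of 25 of the set, Pdpn and Vegfa. The Pdpn match is a palindrome read on both strands, 144 bases before the start, and the Apln and Flt4 promoters held none of the 6 motifs. A match describes letters in this window and is not evidence of binding.

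The other ligands lay between -0.39 and 0.18 in log2 fold change. The median log2 fold change of the class was -0.06, with 2 of 6 above zero, and it was 0.07 without Cre-negative replicate 1 and -0.18 without Cre-negative replicate 2. Vegfb, which acts through Flt1 and is abundant in working myocardium, had the highest level of the class (492 TPM) and a log2 fold change of -0.27 ± 0.16 (adjusted p = 0.714), or -0.12 without Cre-negative replicate 1. Vegfa, the central ligand of sprouting, had 4805, 2713 and 3145 normalized counts in Cre-negative and 2933, 3633 and 3350 in Cre-positive ventricles. Cre-negative replicate 1 was above all others, the log2 fold change was -0.10 ± 0.21 (adjusted p = 0.89), and without that ventricle the value became 0.17. Angpt1, the Tek agonist supplied by mural cells and myocardium, had 953, 600 and 422 against 530, 456 and 518. Its log2 fold change moved from -0.39 ± 0.26 (adjusted p = 0.717) to -0.03 without Cre-negative replicate 1 and to -0.63 without Cre-negative replicate 3.

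For Vegfb, Vegfa and Angpt1 the highest ventricle was Cre-negative replicate 1, which also had the highest summed level of cardiomyocyte genes. The 8 cardiomyocyte genes all had a log2 fold change below zero, with a median of -0.31, and 0 were at 0 counts. Without Cre-negative replicate 1, 6 of the 8 were below zero with a median of -0.12, and Ttn (0.06) and Ryr2 (0.07) were above. The part of this in the ligand values was not tested. Angpt2, the context-dependent Tek ligand stored in endothelial granules, had 167, 173 and 166 normalized counts against 195, 234 and 144, with a log2 fold change of 0.18 ± 0.18 (adjusted p = 0.779). That value was 0.005 without Cre-positive replicate 2 and 0.345 without Cre-positive replicate 3. The Cre-negative values were close together and lay inside the Cre-positive range. Vegfc, the lymphatic growth factor, had 126, 133 and 190 against 151, 160 and 135 and a log2 fold change of -0.01 ± 0.19 (adjusted p = 0.989), between -0.122 without Cre-negative replicate 1 and 0.199 without Cre-negative replicate 3.

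**Figure D3:**
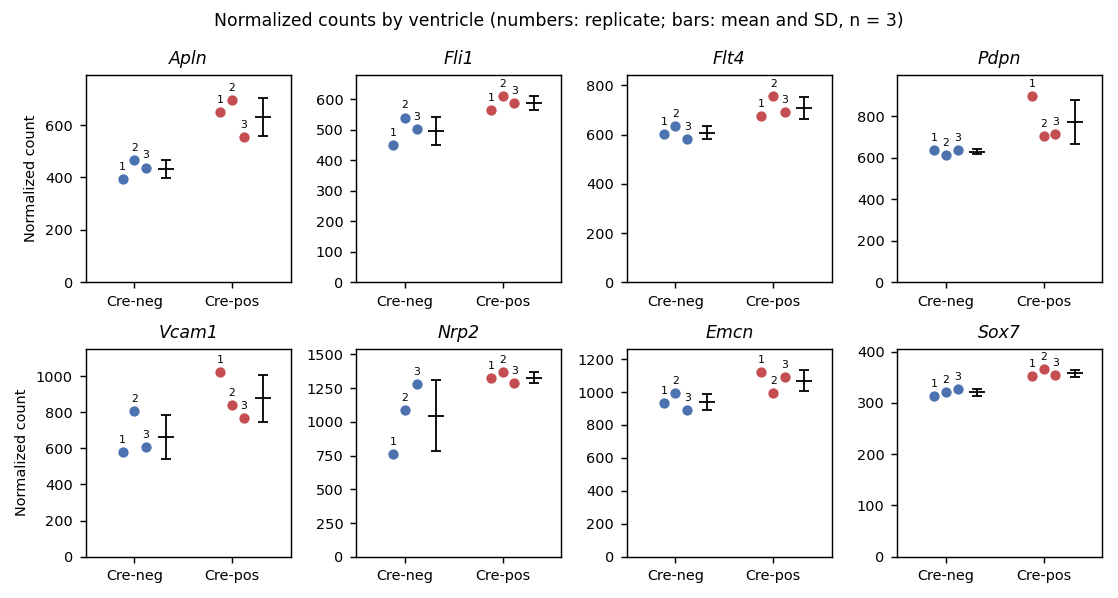
Normalized counts (axis from 0) of the 5 genes with an unadjusted p under 0.05 and of Nrp2, Emcn and Sox7 in each ventricle, with replicate numbers and, beside the points, the mean and SD (n = 3). Apln has the widest gap between groups, Vcam1 overlaps, and Nrp2 is lowest in Cre-negative replicate 1.

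The activated endothelial genes had a median log2 fold change of 0.18, and 5 of 6 were above zero. That median was 0.07 without Cre-positive replicate 1 and 0.36 without Cre-negative replicate 2, and 0.23 without Cre-negative replicate 1. Vcam1 (chr3:116110020-116129688), the ligand for leukocyte integrins, had 582, 804 and 605 normalized counts in Cre-negative and 1022, 839 and 767 in Cre-positive ventricles. The groups overlapped, since Cre-negative replicate 2 was above Cre-positive replicate 3. The log2 fold change was 0.40 ± 0.16 (adjusted p = 0.714), and it was 0.31 without Cre-negative replicate 1 and 0.27 without Cre-positive replicate 1. Its unadjusted p was under 0.05 in 2 of 6 fits that each left out a ventricle, those without Cre-negative replicate 2 or Cre-positive replicate 3. Vcam1 is also made by fibroblasts and other stromal cells, and the 8 fibroblast genes summed to 4660 to 7446 TPM in Cre-negative and 7405 to 8548 TPM in Cre-positive ventricles. The part of this in the Vcam1 level was not tested.

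Icam1, the partner of Vcam1 in firm leukocyte adhesion, had 483, 508 and 496 normalized counts against 596, 459 and 554, with a log2 fold change of 0.11 ± 0.11 (adjusted p = 0.774), between 0.03 and 0.21 when each ventricle was left out. The Cre-positive values were spread around the narrow Cre-negative range. The selectins, which start leukocyte rolling, were the lowest of the class. Sele had 47.1, 50.1 and 35.0 against 51.9, 53.6 and 40.1 (log2 fold change 0.14 ± 0.25, adjusted p = 0.873). Selp had 125, 151 and 126 against 272, 149 and 134, so that Cre-positive replicate 1 alone was high. Its log2 fold change was 0.46 ± 0.27 (adjusted p = 0.714), and 0.08 without that ventricle.

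Vwf, the clotting factor carrier stored with Selp in endothelial granules and in platelets, had 3061, 1954 and 1476 normalized counts in Cre-negative and 2446, 1866 and 1925 in Cre-positive ventricles. Its log2 fold change was -0.06 ± 0.25 (adjusted p = 0.953) and 0.27 without Cre-negative replicate 1, the ventricle with the highest Vwf and the highest platelet genes (49.7 TPM). The part of platelets in Vwf and Selp was not tested. Plvap, the diaphragm protein of fenestrated and immature vessels and the most abundant of the class with 117 TPM, had a log2 fold change of 0.22 ± 0.22 (adjusted p = 0.778), and ran from 0.06 without Cre-positive replicate 1 to 0.47 without Cre-negative replicate 2.

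To set activation against the amount of endothelial RNA, the summed TPM of the 6 activated genes was divided by that of the 14 surface genes in each ventricle. The ratio was 0.0806, 0.103 and 0.0823 in Cre-negative and 0.134, 0.0898 and 0.0961 in Cre-positive ventricles. Cre-negative replicate 2 lay above Cre-positive replicates 2 and 3, so the groups overlapped. Plvap was the largest part of the activated sum, with a mean of 117 TPM against 30.9 TPM (Vwf) or less for each other activated gene. In Cre-positive replicate 1 Plvap had 151 of 269 TPM. The log2 ratio of the group means was 0.26, and 0.07 without Cre-positive replicate 1. Fabp4 made up 37.1% to 48.2% of the surface sum, and without it the log2 value was 0.14, or -0.035 when Cre-positive replicate 1 was also left out. In TMM-scaled counts in place of TPM it was 0.11, or -0.07 without Cre-positive replicate 1 and -0.02 without Cre-negative replicate 3, so the direction turned on 1 ventricle on both of these scales. Summed TPM of the surface genes themselves was 2127 ± 125 in Cre-negative and 2221 ± 187 (SD, n = 3) in Cre-positive ventricles, overlapping ranges, beside a shift of 0.13 on the log2 scale in the median TPM difference of all tested genes.

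The lymphatic genes had a median log2 fold change of 0.26, with 3 of 4 above zero. Of these 4, 2 (Flt4 and Pdpn) were higher at an unadjusted p under 0.05, against 2.85% of all tested genes. The median was 0.16 without Cre-negative replicate 3 and 0.26 without Cre-negative replicate 1. Flt4 (chr11:49609679-49652739), the receptor through which Vegfc drives lymphatic growth, had 602, 635 and 583 normalized counts in Cre-negative ventricles (607 ± 26.4, SD, n = 3) and 674, 758 and 692 in Cre-positive ventricles (708 ± 44.0, SD, n = 3). All 3 Cre-positive ventricles were higher. The fitted log2 fold change was 0.22 ± 0.08 (adjusted p = 0.714) and 0.21 without Cre-negative replicate 1. It stayed between 0.17 and 0.26 in 11 alternative fits, of which 7 had an unadjusted p under 0.05, 3 of them among the 6 that left out a ventricle.

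Pdpn (chr4:143267409-143299564), or podoplanin, a surface mucin of lymphatic endothelium that is also made by mesothelium and by stromal cells after injury, had 637, 614 and 635 normalized counts in Cre-negative (629 ± 12.7, SD, n = 3) and 895, 706 and 713 in Cre-positive ventricles (771 ± 107, SD, n = 3). The groups did not overlap, and Cre-positive replicate 1 was highest. Its fitted log2 fold change was 0.29 ± 0.11 (adjusted p = 0.714), and 0.17 without that ventricle. The unadjusted p was under 0.05 in 3 of 6 such fits, and was lost without Cre-positive replicate 1, Cre-negative replicate 2 or Cre-negative replicate 3. The mesothelial genes Msln, Upk3b, Upk1b, Lrrn4, Wt1 and Krt19 summed to 35.0 to 135 TPM in Cre-negative and 92.3 to 181 TPM in Cre-positive ventricles, highest in Cre-positive replicate 1. All 6 had a log2 fold change above zero (median 0.64), 0 at an unadjusted p under 0.05, and the median was 0.19 without Cre-positive replicate 1 and 1.42 without Cre-negative replicate 1. The part of mesothelium in the Pdpn level was not tested.

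Prox1, which specifies lymphatic endothelium and is also expressed by cardiomyocytes, had the opposite sign. It had 997, 719 and 987 normalized counts against 728, 680 and 905, overlapping groups with a log2 fold change of -0.22 ± 0.16 (adjusted p = 0.722), between -0.36 and -0.14 when each ventricle was left out. Mmrn1, a matrix protein of lymphatic endothelium and platelets, was the least abundant of the class (3.0 TPM) and had 130, 94.4 and 55.5 against 115, 118 and 133. Its Cre-negative values were spread more than 2-fold, and the log2 fold change was 0.40 ± 0.29 (adjusted p = 0.722), and the value without Cre-negative replicate 1 was 0.70 (adjusted p = 0.729, unadjusted p under 0.05), but without Cre-negative replicate 3 it was 0.13. Of 6 other lymphatic genes (Lyve1, Ccl21a, Reln, Foxc2, Itga9 and Piezo2), 5 had a log2 fold change above zero with a median of 0.33 (0.24 to 0.45 when each ventricle was left out), and 0 had an unadjusted p under 0.05.

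Beyond the 43 genes, 7 lists of related endothelial genes were read from the same fit (98 genes, 95 tested). By unadjusted p under 0.05, 7 were higher (7.37%, against 2.85% of all tested genes) and 4 lower (4.21%, against 2.98%), and 0 passed adjustment. Among 22 tested angiogenic factors and inhibitors, 17 (77.3%, against 51.2% of all tested genes) had a log2 fold change above zero (median 0.21, or 0.14 to 0.24 leaving out each ventricle), and 5 (22.7%, against 2.85%) were higher at an unadjusted p under 0.05. Esm1, a proteoglycan secreted by tip cells under Vegfa, had 22.4, 30.5 and 35.0 normalized counts in Cre-negative and 63.8, 71.2 and 66.5 in Cre-positive ventricles. The groups lay far apart for this scarce transcript, with a log2 fold change of 1.19 ± 0.24 (adjusted p = 0.714). Thbs1, an angiogenesis inhibitor released by platelets and stromal cells, had 2769, 2468 and 3294 against 4462, 4000 and 3801 (log2 fold change 0.52 ± 0.13, adjusted p = 0.714). Edn1, the endothelial vasoconstrictor endothelin, had 113, 145 and 172 against 259, 205 and 202 (0.62 ± 0.19, adjusted p = 0.714). For all 3 genes every Cre-positive ventricle was the higher.

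The capillary list went the other way, with 9 of 10 genes below zero and a median log2 fold change of -0.35. Without Cre-negative replicate 1 the count was again 9 of 10 and the median was -0.20. Gpihbp1, which carries lipoprotein lipase to the capillary lumen, had 1106, 1048 and 974 normalized counts in Cre-negative and 767, 818 and 856 in Cre-positive ventricles. The groups did not overlap (log2 fold change -0.36 ± 0.09, adjusted p = 0.714). Rgcc, a cell cycle regulator found in capillary endothelium, had 385, 463 and 379 against 295, 285 and 358 (-0.39 ± 0.13, adjusted p = 0.714), again without overlap. Leaving out each ventricle gave -0.40 to -0.32 for Gpihbp1 and -0.50 to -0.29 for Rgcc. Cd36 (-0.42) and Lpl (-0.345) of this list are also made by cardiomyocytes, whose genes had a median of -0.31. Without Cre-negative replicate 1 these values were -0.10 for Cd36, -0.16 for Lpl and -0.12 for the cardiomyocyte list. The part of cardiomyocytes in the capillary values was not tested.

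The remaining endothelial lists lay nearer to zero over the 6 ventricles. Of 11 arterial genes 9 were above zero (median 0.07, and 0.05 without Cre-negative replicate 1 but 0.22 without Cre-negative replicate 2 and 0.15 without Cre-positive replicate 1), and Efnb2, the arterial ephrin ligand, had a log2 fold change of 0.26 ± 0.08 (adjusted p = 0.714) with groups that did not overlap. Of 7 venous and endocardial genes 3 were above zero (median -0.03), or 5 without Cre-negative replicate 1 (median 0.05) and 2 without Cre-negative replicate 3 (median -0.12), and the secreted cytokine-like protein Cytl1 had -0.77 ± 0.26 (adjusted p = 0.714). Of 23 other pan-endothelial genes 9 were above zero (median -0.04), or 16 without that ventricle (median 0.04). Among these the blood and endothelial transcription factor Tal1 had 0.45 ± 0.16 (adjusted p = 0.714) and Gata2 had -0.34 ± 0.14 (adjusted p = 0.714). Of 16 tested adhesion and activation genes 13 were above zero (median 0.08), or 8 without it (median 0.02), with 0 at an unadjusted p under 0.05 over the 6 ventricles. Lists of other cell types had medians of 0.11 (fibroblast), 0.12 (mural), 0.07 (macrophage), -0.13 (red cell), -0.54 (neutrophil) and -0.36 (adipocyte, 4 of 5 genes tested). Without Cre-negative replicate 1 the medians were 0.09 (fibroblast), -0.02 (mural), -0.27 (macrophage), 0.23 (red cell), 0.53 (neutrophil) and 0.18 (adipocyte), so that all but the fibroblast list changed sign. Leaving out any ventricle, these medians ran from 0.08 to 0.25 (fibroblast, highest without Cre-negative replicate 2), -0.02 to 0.23 (mural), -0.27 to 0.17 (macrophage), -0.33 to 0.23 (red cell), -0.95 to 0.53 (neutrophil) and -0.86 to 0.18 (adipocyte).

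**Figure D4:**
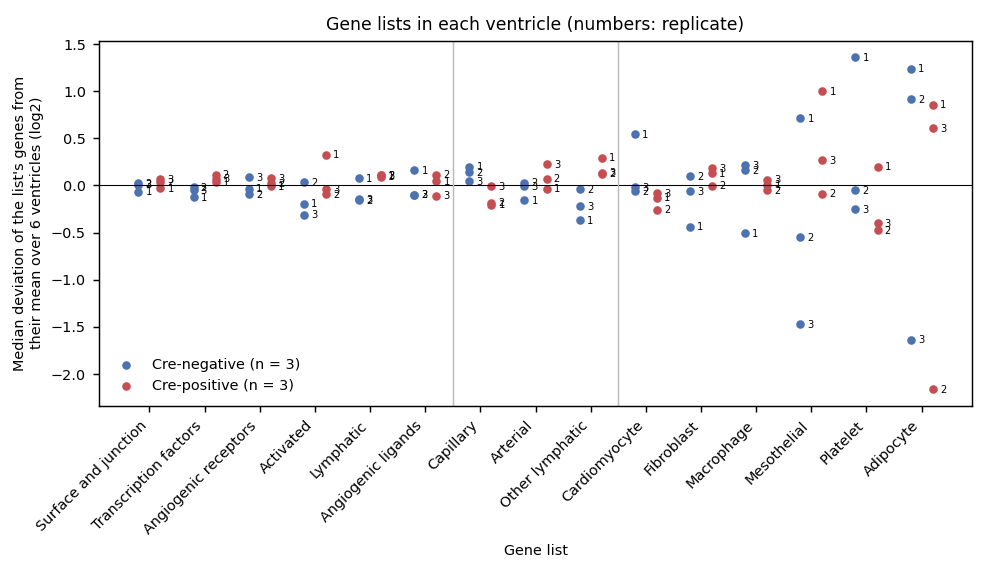
Median over each list of the deviation (log2) of its genes from their mean over the 6 ventricles, with replicate numbers, for the 6 classes of the set, 3 related endothelial lists and 6 lists of other cell types. The 6 classes of the set stay within 0.33 of zero, and the list of other lymphatic genes reaches -0.37 in Cre-negative replicate 1. Each of the 6 lists of other cell types reaches further from zero, with Cre-negative replicate 1 apart for cardiomyocytes.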

How the data were processed

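Left ventricles of 3 Cre-positive and 3 Cre-negative siblings were profiled by RNAseq, 1 library each. Per the submitters' processing notes the authors used Bowtie2 2.2.5, RSEM 1.2.12 and GRCm38.p6, with annotation and strand not given in the sources used here. The authors deposited estimated counts (11.46% not whole, not normalized) and TPM (relative to gene length and library size). Deposited FPKM, and a file of the authors' own fold changes, p-values and q-values, were not used. The genes and lists were chosen with earlier results of these data known.

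The counts, rounded, entered edgeR 4.0.16 (R 4.3.3): filterByExpr (minimum count 10, minimum total 15), TMM, quasi-likelihood test without covariates, Benjamini-Hochberg adjustment over all tested genes (threshold 0.05). Standard errors came from the F statistic. TPM was used for levels and sums only. The fit was tested on simulated data. Intervals of fold changes cover the spread between ventricles. The chi-square per gene between any pair of libraries was 8.05 to 70.2, so none was a copy.

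Values in every ventricle are given for genes with an unadjusted p under 0.05 or groups that did not overlap and for fixed anchors (Pecam1, Cdh5, Kdr, Flt1, Tek, Vwf, Sele, Selp, Vcam1, Icam1, Flt4, Prox1, Pdpn, Mmrn1, Vegfa, Vegfc, Angpt1, Angpt2, Fabp4 and Klf2), and from related lists for at most the 3 genes of smallest p under 0.05. Alternatives were DESeq2 1.42.0 (size factors, and its Wald test), no filter, a mean of at least 50 counts, a replicate block and leaving out each ventricle. Figures were drawn with matplotlib 3.10.9 in Python 3.11.15.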

Additional observations from a re-analysis of the deposited data

How the results depend on the processing

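Of the 43 genes, 0 passed adjustment under any of 11 alternative fits, and the lowest adjusted p of any was 0.245. The count at an unadjusted p under 0.05 was 5 as reported, 3 with the DESeq2 Wald test (6.98%, against 5.88% of all tested genes), and 2 to 6 when each ventricle was left out (4.65% to 14%, while the share of all tested genes went from 2.68% to 9.61%). Without Cre-negative replicate 3 the count was 5 (11.6%, against 9.61%), made of Apln, Aplnr and Nrp2, which were higher, and Fabp4 and Angpt1, which were lower. Over all tested genes the adjusted count was 1 as reported, 5 with the Wald test and 0 to 2 when each ventricle was left out. Class medians of the log2 fold change, leaving out each ventricle, ran from 0.008 to 0.087 (surface), 0.033 to 0.123 (transcription factors, highest without Cre-negative replicate 2), -0.033 to 0.125 (receptors), 0.068 to 0.359 (activated), 0.161 to 0.283 (lymphatic, lowest without Cre-negative replicate 3) and -0.179 to 0.068 (ligands, lowest without Cre-negative replicate 2). The direction held in every alternative for 29 genes and turned for 14. Leaving out each ventricle, these 14 ran from -0.002 to 0.108 (Pecam1), -0.154 to 0.02 (S1pr1), -0.055 to 0.076 (Cd34), -0.088 to 0.133 (Erg), -0.206 to 0.028 (Klf2), -0.083 to 0.177 (Kdr), -0.184 to 0.184 (Flt1), -0.057 to 0.042 (Tek), -0.014 to 0.111 (Tie1), -0.033 to 0.074 (Nrp1), -0.003 to 0.258 (Sele), -0.269 to 0.274 (Vwf), -0.265 to 0.17 (Vegfa) and -0.122 to 0.199 (Vegfc). The cause was not tested. Sele had no value with a mean of at least 50 counts. For the activated over surface ratio in TPM, the log2 of the Cre-positive over the Cre-negative mean ran from 0.068 to 0.387 when each ventricle was left out. This log2 value ran from -0.035 to 0.267 without Fabp4 and from -0.07 to 0.199 in TMM-scaled counts. These last ranges, the sum without Fabp4, the alternatives for Esm1 and the list medians without a ventricle were chosen after seeing the data. Esm1 kept an unadjusted p under 0.05 in its 10 alternatives.

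Genotypes share replicate numbers 1 to 3. Correlations of the deviations were 0.354, 0.073 and -0.032 for same-numbered ventricles, and ran from -0.368 to 0.354 between ventricles of different numbers. Replicate 1 was thus level with the highest of the others, and replicates 2 and 3 lay within their range. The numbers were not taken as pairs, and a replicate block was fitted as an alternative. With the replicate block the adjusted count over all genes was 0, 6 genes of the set had an unadjusted p under 0.05 (the same 5 and Nrp2, 14% against 8.81% of all tested genes), and the log2 fold change of Vegfc was 0.007.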
